A study of Vitis vinifera with 2 samples.

Results

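Transposable elements (TEs) with a methylation value in the CHH context, but with none in the CG or CHG context, were examined in the grapevine Vitis vinifera cv. Chardonnay. A TE was counted as CHH-only when it stood in the CHH table of its class and in neither the CG nor the CHG table of that class, and when it spanned at least 200 bp. The rule used listing and length and did not use any methylation level. It was met by 27094 of the 125552 TEs of that length with a CHH value (21.6%), and 184251 TEs of any length had a value in at least 1 context. Of the CHH-only TEs, 4967 were genic, which means that they overlapped a gene annotation, and 22127 were intergenic. They were set against the 77496 TEs of at least 200 bp that were listed in all 3 contexts, of which 18150 were genic and 59346 intergenic.

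The study had 1 library of embryogenic callus (EC) and 1 library of leaf tissue, both of genomic DNA sequenced after bisulphite treatment, which turns unmethylated cytosines into bases read as thymine. EC is proliferating tissue that can give rise to somatic embryos. Here it had been raised from anthers of immature inflorescences, grown on solid medium in the dark, and pooled from several Petri dishes, whereas the leaf library came from several young leaves of the same vines. EC and leaf therefore differed in tissue of origin and growth conditions together, and these cannot be told apart with 1 library of each. A level is the deposited methylation value of a TE in a library, in percent. How it was combined over the cytosines of a TE is not stated. A change is the EC level minus the leaf level in percentage points. No replicates were available, so no test between the tissues was possible. The spread among the means of the 19 chromosomes is given instead, as an SD that describes variation along the genome and not between plants or cultures.

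In plants, cytosine methylation is kept in place by different enzymes in different contexts. CG methylation is copied to the new strand after replication by MET1, and CHG methylation is maintained by CMT3 in a loop with histone H3 lysine methylation. CHH sites, where H is A, C or T, have no methylated partner on the opposite strand and must be methylated anew. This is done by CMT2, mainly in the bodies of long heterochromatic TEs, and by DRM2 in RNA-directed DNA methylation, which is guided by small interfering RNAs and acts mainly on short TEs and TE edges. These roles are known best from Arabidopsis.

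The CHH-only TEs were mostly short. Their median length was 298 bp for genic and 300 bp for intergenic TEs, against 837 bp and 864 bp for the TEs listed in all 3 contexts. A length under 500 bp was found for 82.2% of the CHH-only TEs and for 27.6% of the TEs listed in all 3 contexts. Their summed length was 10.7 Mb, against 114 Mb. Long members did exist, with 1024 CHH-only TEs of at least 1000 bp. The longest genic one spanned 6240 bp and the longest intergenic one 9371 bp.

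Among genic TEs with a CHH value, the CHH-only share was 39.3% at 200 to under 300 bp, 23.2% at 300 to under 500 bp, 9.91% at 500 to under 1000 bp, 3.44% at 1000 to under 2000 bp and 0.844% at 2000 bp or more. Among intergenic TEs it was 47.8%, 31.8%, 13.4%, 4.24% and 1.23% in the same order of length. The share was thus higher among intergenic than genic TEs in each of the 5 length classes, and was 22.8% and 17.5% over all lengths. A TE is missing from a table when its effective coverage in that context did not exceed 20 in both libraries. Whether a CHH-only TE had few CG and CHG sites or few reads at them is not shown by the tables, so CHH-only listing does not mean that CG and CHG methylation was absent.

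**Figure D1:**
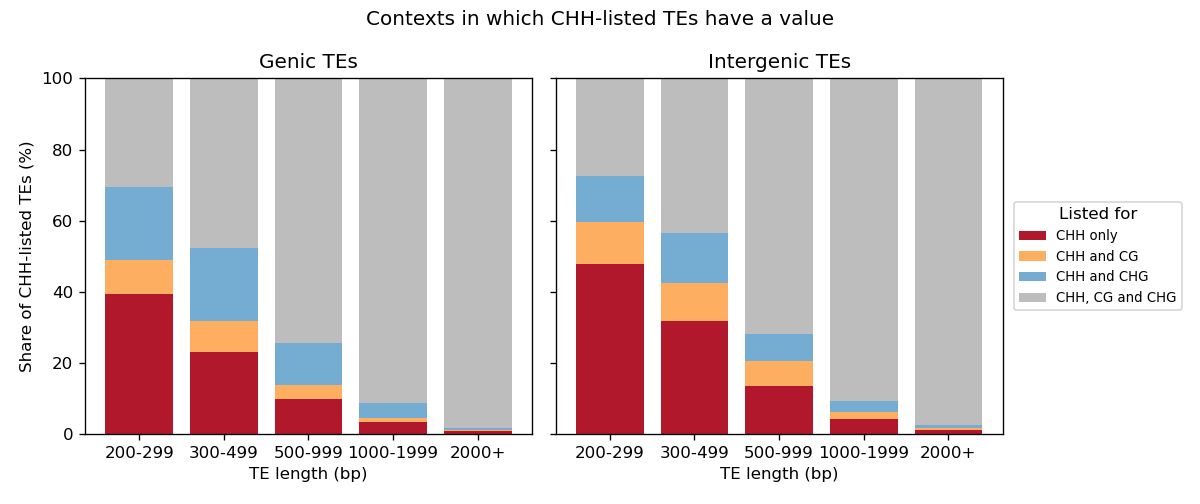
Share of TEs with a CHH value (y axis, %) by the contexts in which they were listed, for 5 length classes (x axis, bp) of genic (left) and intergenic (right) TEs. Red segments are the CHH-only TEs, which made up 39.3% of genic and 47.8% of intergenic TEs at 200 to under 300 bp and 0.844% and 1.23% at 2000 bp or more.

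CHH-only TEs were hypermethylated in EC relative to leaf in both classes. Intergenic CHH-only TEs averaged 32.5% in EC and 2.39% in leaf, a change of 30.2 percentage points (SD of chromosome means 0.636). Genic CHH-only TEs averaged 20.6% in EC and 1.94% in leaf, a change of 18.6 points (SD of chromosome means 2.12). The mean change was positive on all 19 chromosomes in both classes. Altogether 26272 CHH-only TEs (97.0%) had a higher level in EC than in leaf. The share was 97.8% for intergenic CHH-only TEs, against 98.4% of all intergenic TEs listed for CHH at any length and 99.7% of those of at least 200 bp listed in all 3 contexts. It was 93.1% for genic CHH-only TEs, against 92.9% and 98.6% of the same genic groups. A higher level in EC was thus about as frequent in CHH-only TEs as among all TEs with a CHH value, and less frequent than in TEs listed in all 3 contexts.

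Single CHH-only TEs varied widely around these means. The quartiles of the change ran from 17.9 to 41.5 points for intergenic and from 4.38 to 29.4 points for genic CHH-only TEs. The EC level had an SD of 17.6 points over intergenic CHH-only TEs, against 13.4 points over intergenic TEs listed in all 3 contexts. For genic TEs the SD was 17.996 against 15.3 points. The genic distribution was skewed, with a median EC level of 15.7%, below its mean of 20.6%, while the intergenic median of 32.6% was close to its mean. The depth behind each value is unknown, and the part of measurement error in this scatter was not tested.

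Intergenic CHH-only TEs had a lower CHH level than intergenic TEs listed in all 3 contexts. In EC the means were 32.5% and 36.8%, and in leaf they were 2.39% and 3.41%. The change was 30.2 points for CHH-only TEs and 33.4 points for TEs listed in all 3 contexts, a difference of -3.23 points that was negative on 19 of 19 chromosomes (SD of the 19 differences 0.850). When the TEs listed in all 3 contexts were weighted to the length classes of the CHH-only TEs, their mean change was 32.0 points and the difference was -1.87 points (SD 1.02). It was then negative on 18 of 19 chromosomes, with chromosome 5 as the exception at 0.0324 points and chromosome 8 lowest at -4.03 points. The weighted difference in EC level was -3.09 points and was negative on 19 of 19 chromosomes.

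In genic TEs the sign was the other way at the same length classes. Genic CHH-only TEs averaged 20.6% in EC, against 20.005% for genic TEs listed in all 3 contexts, and 1.94% against 2.41% in leaf. The plain difference in change was 1.06 points, smaller than the SD of 1.54 points among chromosomes. Between medians it was 0.01 points. Weighted to the same length classes, the change was 18.6 points in CHH-only TEs and 15.9 points in TEs listed in all 3 contexts, a difference of 2.72 points (SD 1.85). It was positive on 17 of 19 chromosomes and negative on chromosome 2, at -0.632 points, and chromosome 15, at -2.02 points. This direction depended on the TEs chosen for comparison, as it turned negative against the nearest neighbours described below. Lengths were matched by class only. Within each class the genic CHH-only TEs had the shorter median, such as 624 bp against 697.5 bp at 500 to under 1000 bp.

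**Figure D2:**
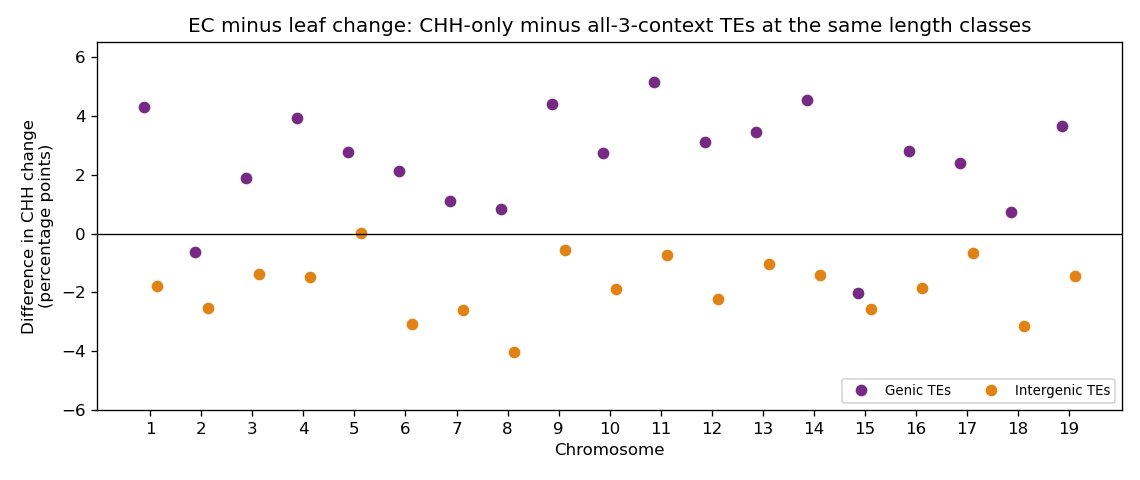
Difference in mean EC minus leaf CHH change between CHH-only TEs and TEs listed in all 3 contexts at the same length classes (y axis, percentage points) on each of the 19 chromosomes (x axis), with 1 point per chromosome for genic (purple) and intergenic (orange) TEs. Genic points lie above 0 except on chromosomes 2 and 15, and intergenic points lie below 0 except on chromosome 5.

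The difference between the classes was therefore smaller among CHH-only TEs. The change of genic minus intergenic TEs was -11.5 points for CHH-only TEs and -15.8 points for TEs listed in all 3 contexts. At 200 to under 300 bp it was -9.89 and -15.0 points. It was also smaller in size for CHH-only TEs in each of the other 4 length classes.

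The length of CHH-only TEs had a modest relation to their level. Intergenic CHH-only TEs averaged 31.1% in EC at 200 to under 300 bp, 32.9% at 300 to under 500 bp, 36.4% at 500 to under 1000 bp, 34.1% at 1000 to under 2000 bp and 35.0% at 2000 bp or more. The intergenic TEs listed in all 3 contexts averaged 34.6%, 36.4%, 37.2%, 36.8% and 37.7% in these classes. CHH-only TEs were thus lower in each class, with a difference of -3.46 points at 200 to under 300 bp and of -0.86 points at 500 to under 1000 bp. In that middle class the difference in change was -0.16 points, less than the SD of 1.14 points among chromosomes, with 10 chromosomes positive and 9 negative. At 2000 bp or more the EC difference was -2.65 points, with 152 CHH-only TEs. It lay inside the SD of 6.26 points among chromosomes, with 7 positive and 11 negative.

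Genic CHH-only TEs averaged 20.9%, 19.3%, 22.0%, 22.1% and 26.1% in EC from the shortest to the longest class. Genic TEs listed in all 3 contexts averaged 18.1%, 17.4%, 18.7%, 19.8% and 25.9%. The genic difference in change was 2.96, 2.14, 3.42 and 2.06 points in the first 4 classes. Of these only the value of the shortest class exceeded the SD among chromosomes, which was 2.09 points there. Just 29 genic CHH-only TEs reached 2000 bp, and their difference of -0.15 points lay far inside an SD of 9.11 points. In leaf, CHH-only TEs of both classes stayed low at each length, with means between 1.70% and 3.62%.

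**Figure D3:**
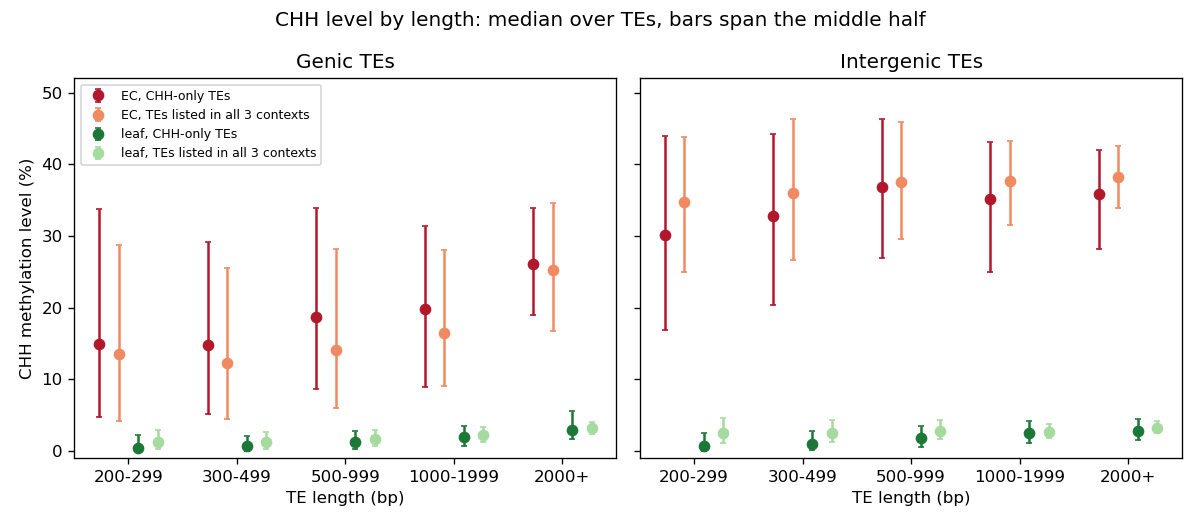
Median CHH methylation level (y axis, %) by TE length class (x axis, bp) in EC and leaf, for CHH-only TEs (dark) and TEs listed in all 3 contexts (pale), genic on the left and intergenic on the right, with vertical lines from the lower to the upper quartile over TEs. EC medians of intergenic CHH-only TEs lie below those of TEs listed in all 3 contexts in each class, genic CHH-only medians lie above them, and leaf medians stay under 4%.

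Among TEs of 200 to under 300 bp, the EC levels of intergenic CHH-only TEs were spread more broadly than those of intergenic TEs listed in all 3 contexts. Of the intergenic CHH-only TEs in this class, 7.53% were under 5% in EC, against 4.12% of those listed in all 3 contexts. Levels from 20% to under 40% were found for 37.7% of intergenic CHH-only TEs and for 48.6% of intergenic TEs listed in all 3 contexts. Among genic TEs of this length the shares under 5% were 26.0% and 28.1%, and the shares from 40% to under 60% were 14.5% and 9.90%.

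**Figure D4:**
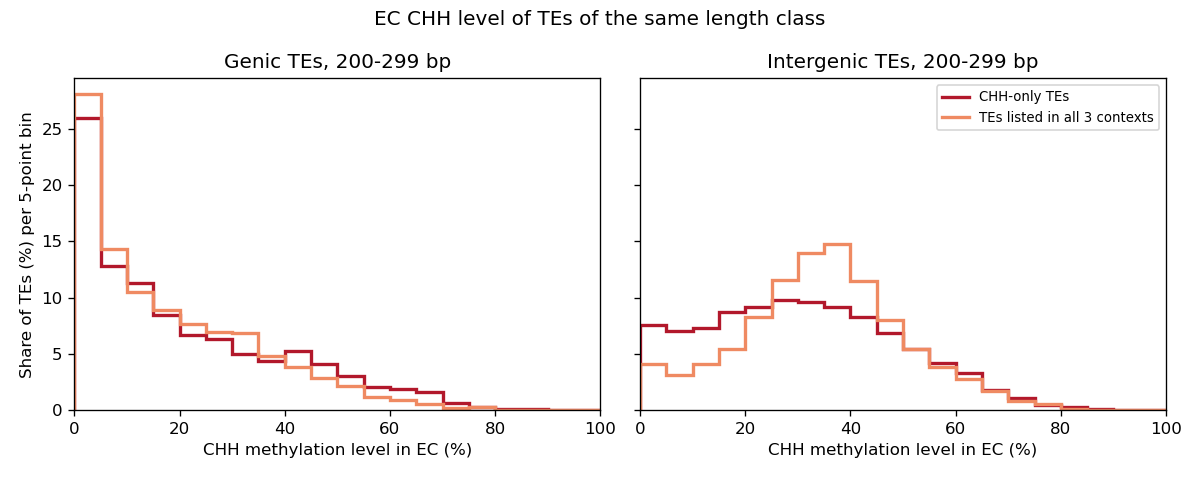
Distribution of the EC CHH level (x axis, %) over TEs of 200 to under 300 bp, as the share of TEs in each bin of 5 points (y axis, %), for CHH-only TEs (red) and TEs listed in all 3 contexts (orange), genic on the left and intergenic on the right. The intergenic CHH-only curve is flatter, with 37.7% of TEs between 20% and 40% against 48.6%, and the genic curves lie close together at most levels.

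A rise of at least 10 points in EC was found for 19151 intergenic CHH-only TEs (86.6%, Wilson 95% interval 86.1% to 87.0%). Over all intergenic TEs listed for CHH at any length this share was 89.7%, and over those of at least 200 bp listed in all 3 contexts it was 94.5%. Among genic CHH-only TEs, 2989 (60.2%, interval 58.8% to 61.5%) rose by at least 10 points. The share was 52.8% over all genic TEs listed for CHH and 62.8% over genic TEs listed in all 3 contexts. At 200 to under 300 bp the shares were 58.2% and 53.8% for genic CHH-only TEs and genic TEs listed in all 3 contexts. For intergenic TEs of this length they were 83.7% and 91.4%. The intervals treat TEs as independent and cover counting error only.

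Zero values were common in CHH-only TEs. In leaf, 1535 genic CHH-only TEs (30.9%) and 5778 intergenic CHH-only TEs (26.1%) were listed at 0, against 4.04% and 1.39% of the TEs listed in all 3 contexts. At 200 to under 300 bp the shares were 36.9% against 12.6% for genic and 31.5% against 5.45% for intergenic TEs. In EC, 5.17% of genic and 1.505% of intergenic CHH-only TEs were listed at 0, against 0.303% and 0.104%. A value of 0 was given in both tissues for 4.11% of genic and 1.012% of intergenic CHH-only TEs. Without read numbers it is not known what level a value of 0 allows.

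CHH-only TEs that were listed at 0 in leaf had lower levels in EC than their class as a whole. They averaged 26.2% in EC for intergenic TEs, with a median of 24.1%, and 13.6% for genic TEs, with a median of 6.86%. TEs listed in all 3 contexts with a leaf level of 0 averaged 14.7% and 5.55% in EC. At the other end, 966 intergenic (4.37%) and 138 genic (2.78%) CHH-only TEs had a leaf level of 10% or more. These CHH-only TEs averaged 48.8% in EC and 17.9% in leaf for intergenic, and 47.2% in EC and 19.97% in leaf for genic TEs. Among TEs listed in all 3 contexts, 3.10% of intergenic and 1.10% of genic TEs had such a leaf level. They averaged 56.8% and 53.7% in EC, so a high EC level at such TEs was not particular to CHH-only TEs. The CHH-only TEs with the most CHH methylation in leaf thus also had more of it in EC than the class as a whole. Their change is not compared here, because the leaf value used for the choice also enters the change.

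A fall of at least 10 points in EC was rare, with 20 CHH-only TEs in all. These were 5 genic CHH-only TEs (0.101%, against 0.0369% of all genic TEs listed for CHH) and 15 intergenic ones (0.0678%, against 0.0377% of all intergenic TEs). Among the TEs of at least 200 bp listed in all 3 contexts there was 1. Of the 20, 16 were under 350 bp. The fall of a genic TE of 253 bp on chromosome 16, at 11986213 to 11986466 on the minus strand, was the largest in size of the 20, with 29.63% in EC and 57.89% in leaf. The next was an intergenic TE of 221 bp on chromosome 7, at 10126362 to 10126583, with 0% in EC and 26.79% in leaf. Both belong to the shortest length class, and the depth behind their values is unknown.

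CHH-only TEs were found on every chromosome, and 971 of them (3.58%) lay on sequences that have no position on a chromosome. Their share of intergenic TEs with a CHH value ran from 18.4% on chromosome 10 to 29.3% on chromosome 9, and their share of genic TEs from 13.4% on chromosome 17 to 21.9% on chromosome 9. Chromosome 9 thus had the highest share in both classes. The mean change of genic CHH-only TEs was also highest on chromosome 9, at 22.6 points, and lowest on chromosome 2, at 15.2 points. For intergenic CHH-only TEs the range was narrower, from 29.1 points on chromosome 6 to 31.4 points on chromosome 13, and chromosome 9 was near its lower end at 29.2 points.

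A TE of the same class listed in all 3 contexts lay within 5 kb of 66.0% of genic and 76.2% of intergenic CHH-only TEs. The nearest one was over 20 kb away for 17.6% and 5.34%. The median distance to it was 1727 bp for genic and 1296 bp for intergenic CHH-only TEs. Neither these distances nor the overlaps below were computed for other TEs. In total 3443 CHH-only TEs, 11.8% of genic and 12.9% of intergenic ones, overlapped a TE that was listed for CG or CHG. Those with such an overlap had a higher level in EC, at 38.7% for 2859 intergenic TEs and 31.6% for the intergenic TEs without one. For genic CHH-only TEs the EC levels were 23.0% with an overlap and 20.3% without.

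The change of intergenic CHH-only TEs was smaller at greater distances from the nearest intergenic TE listed in all 3 contexts. It was 36.1 points where both overlapped, 31.7 points at up to 1000 bp, 29.3 points at over 1000 to 5000 bp, 26.7 points at over 5000 to 20000 bp and 25.5 points farther away. Genic CHH-only TEs showed no such order, with changes of 21.7, 17.5, 17.2, 18.5 and 21.5 points at the same distances. Median lengths moved with distance too, from 360.5 bp at an overlap to 276 bp in the farthest intergenic group, and the part of length in this order was not tested.

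Pairing each CHH-only TE with its nearest neighbour listed in all 3 contexts compared TEs in the same stretch of genome. Within 5 kb this gave 16850 intergenic pairs, in which the CHH-only TE changed by 31.3 points and its neighbour by 34.2 points, a difference of -2.84 points. In 3277 genic pairs the changes were 17.9 and 19.4 points, a difference of -1.50 points. The CHH-only TE had the greater change in 44.4% of intergenic and 43.4% of genic pairs. In some pairs the 2 TEs overlapped and so shared sequence. Without CHH-only TEs that overlapped a TE listed for CG or CHG, the difference was -3.50 points in 14165 intergenic pairs. It was -1.89 points in 2760 genic pairs. The genic difference was thus negative here, whereas it was 2.72 points over the whole genome at the same length classes.

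The neighbours were longer, with medians of 308 bp for CHH-only TEs and 856 bp for neighbours in genic pairs, and of 306 bp and 852 bp in intergenic pairs. The neighbour was then limited to the same length class within 20 kb, a choice made after these values were seen. The mean difference was 1.05 points in 1998 genic pairs and -1.07 points in 12194 intergenic pairs. The median difference was 0.48 points in genic and -0.58 points in intergenic pairs. The CHH-only TE had the greater change in 52.002% of these genic and 48.5% of these intergenic pairs. Both classes were thus split nearly evenly. The intergenic difference was therefore negative in each of these comparisons. The genic one was positive at the same length classes and negative against neighbours of any length. The changes of CHH-only TE and neighbour within 5 kb had a Pearson correlation of 0.506 and a Spearman correlation of 0.532 over 3277 genic pairs, and of 0.230 and 0.213 over 16850 intergenic pairs. Without CHH-only TEs that overlapped a TE listed for CG or CHG, the Pearson correlation was 0.479 in genic and 0.198 in intergenic pairs. Paired TEs share both libraries and a neighbourhood, some share sequence, and some neighbours belong to several pairs, so these coefficients are descriptions.

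CHH-only TEs have no CHG value of their own, so the CHG level of the nearest TE listed in all 3 contexts was used to describe their surroundings. CHH-only TEs that overlapped a TE listed for CG or CHG were left out. Intergenic CHH-only TEs changed by 21.8 points beside neighbours with a CHG level under 20% in EC, by 26.5 points beside those from 20% to under 60%, and by 32.0 points beside those of 60% or more. The SDs of the chromosome means were 3.41, 2.20 and 0.790 points. For genic CHH-only TEs the changes were 10.8, 14.3 and 24.9 points (SD 2.59, 2.45 and 3.27). CHH-only TEs thus gained more CHH methylation beside a neighbour with more CHG methylation, in both classes.

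The neighbours themselves differed more strongly across these levels. Their own CHH change was 5.20, 16.0 and 32.5 points for genic and 9.09, 25.1 and 38.01 points for intergenic neighbours. CHH-only TEs therefore exceeded their neighbours where CHG was under 20% and fell short of them at 60% or more, although the neighbours alone were grouped by a value of their own. The CHG level of the neighbour in leaf gave a weaker order, with genic CHH-only changes of 12.8, 17.5 and 18.9 points and intergenic ones of 25.6, 30.2 and 31.0 points. The EC value of the neighbour comes from the same library as the EC value of the CHH-only TE, and the part of this in the order was not tested.

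**Figure D5:**
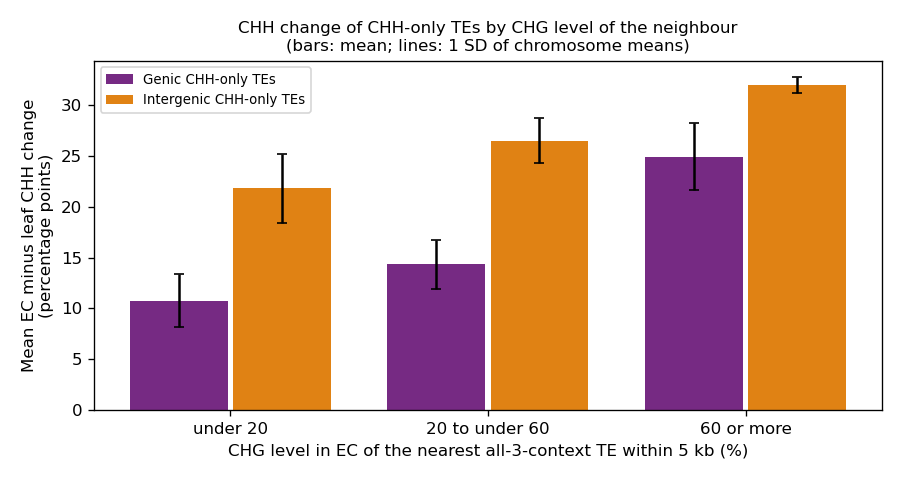
Mean EC minus leaf CHH change of CHH-only TEs (y axis, percentage points) by the CHG level in EC of the nearest TE listed in all 3 contexts within 5 kb (x axis, %), for genic (purple) and intergenic (orange) CHH-only TEs, with bars at the mean and lines of 1 SD of the chromosome means. The change is 10.8, 14.3 and 24.9 points for genic and 21.8, 26.5 and 32.0 points for intergenic CHH-only TEs from the lowest to the highest CHG level.

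Intergenic CHH-only TEs were also divided by their distance to the nearest genic TE. Their change was 28.3 points at under 1000 bp from a genic TE, 28.8 points at 1000 to under 5000 bp, 29.97 points at 5000 to under 20000 bp, 30.6 points at 20000 to under 50000 bp and 31.5 points at 50000 bp or more. The intergenic TEs listed in all 3 contexts changed by 31.5, 33.4, 33.8, 33.4 and 32.9 points. At the same length classes the differences of CHH-only minus all-3-context TEs were -1.49, -3.21, -2.49, -1.42 and -0.05 points. From 1000 to under 5000 bp outward these differences became smaller in size with distance. The nearest group, of 502 CHH-only TEs, did not follow this order. The SD of the CHH-only means among chromosomes was 3.91, 1.23, 1.02, 1.46 and 1.498 points. It describes the CHH-only means and not the differences, whose spread among chromosomes was not computed for these groups.

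Single TEs near the median of their class show what a typical CHH-only TE looked like. Coordinates are those of the 12X assembly of the PN40024 genome as deposited. A genic TE of 211 bp on chromosome 14, at 24679210 to 24679421 on the plus strand, had 14.79% in EC and 0.44% in leaf. Its nearest TE listed in all 3 contexts lay 9 bp away and had 44.02% in EC and 0.84% in leaf. An intergenic TE of 265 bp on chromosome 3, at 15533026 to 15533291 on the plus strand, had 30.30% in EC and 0.71% in leaf. Both had a low leaf level and a clear rise, and the genic one stayed well below its close neighbour in EC.

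Typical longer members had higher leaf levels. A genic TE of 1536 bp on chromosome 4, at 1611049 to 1612585 on the minus strand, had 19.90% in EC and 2.11% in leaf. An intergenic TE of 2255 bp on chromosome 9, at 20720925 to 20723180 on the plus strand, had 35.63% in EC and 2.55% in leaf, and a neighbour at 16 bp had 47.64% in EC and 5.44% in leaf.

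The longest CHH-only TEs did not share 1 pattern. The longest genic one, of 6240 bp on chromosome 10 at 7460670 to 7466910 on the minus strand, had 46.42% in EC and 8% in leaf. Another genic one, of 4414 bp on chromosome 14 at 14071811 to 14076225 on the minus strand, had 6.93% in EC and 1.68% in leaf, and its neighbour at 3 bp had 12.54% in EC and 1.86% in leaf. The longest intergenic one, of 9371 bp on chromosome 5 at 9015913 to 9025284 on the plus strand, had 72.41% in EC and 2.56% in leaf. An intergenic TE listed in all 3 contexts began 3 bp beyond its end and had 36.58% in EC and 2.51% in leaf. The 3 TEs thus ranged from little change to a level well above that of the adjacent TE. The others among the 3 longest of each class lay nearer to the EC means of their length class, 26.1% for genic and 35.0% for intergenic TEs. A genic one of 4419 bp had 26.16% in EC and 0% in leaf. Intergenic ones of 8579 bp and 7153 bp had 37.75% and 40.52% in EC, and 3.6% and 3.38% in leaf. The coverage of all these TEs at CG and at CHG sites did not pass the limit despite their length. The depth behind their CHH values, and behind those of the extremes below, is unknown.

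The extremes among CHH-only TEs of at least 500 bp were far from these typical values. The largest rise was 84.8 points in an intergenic TE of 780 bp on chromosome 9, at 5663162 to 5663942, with 85.71% in EC and 0.89% in leaf. Among genic TEs it was a TE of 575 bp on chromosome 12, at 22317893 to 22318468, with 77.32% in EC and 0% in leaf. Its nearest neighbour, 950 bp away, also rose strongly, with 61.40% in EC and 0.56% in leaf.

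The largest genic fall in this length range was in a TE of 1173 bp on chromosome 2, at 6514239 to 6515412, with 0% in EC and 12.07% in leaf, while its neighbour at 516 bp had 27.37% in EC and 1.66% in leaf. Among intergenic CHH-only TEs it was in a TE of 518 bp on chromosome 4, at 20900859 to 20901377, with 28.57% in EC and 43.75% in leaf. The highest leaf level of the intergenic ones was in a TE of 870 bp on chromosome 10, at 18065355 to 18066225, with 59.55% in EC and 60.17% in leaf. Its neighbour at 511 bp had 39.74% in EC and 1.59% in leaf. Leaf levels were thus low in the neighbours of both the chromosome 2 and the chromosome 10 TE.

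Levels just inside the length limit of 200 bp were higher than those just outside it. Genic CHH-only TEs in the first 5 bp above the limit averaged 21.9% in EC and 1.89% in leaf (n = 174), and TEs in the 5 bp below it, which only their length left out, averaged 17.7% and 1.22% (n = 138). For intergenic TEs the averages were 32.8% and 2.76% just inside (n = 683) and 30.2% and 2.04% just outside the limit (n = 587). The spread in these narrow windows was not computed. Over wider lengths the intergenic order was the other way, with 32.9% in EC under 200 bp and 31.1% at 200 to under 300 bp. Genic CHH-only TEs kept the order, with 14.5% and 20.9%.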

How the data were processed

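Whole-genome bisulphite sequencing of 1 EC and 1 leaf library was analysed. The authors aligned the reads with BS-Seeker2 to the 12X PN40024 assembly. They called methylation and calculated it per TE with cgmaptools, and dropped any TE whose effective coverage did not exceed 20 in EC and in leaf. TEs came from RepeatMasker. The 6 tables used were deposited as a fraction from 0 to 1 per TE and library, and were multiplied to give percentages. They hold no read or cytosine numbers, so the depth of each value is unknown and TEs weigh equally in means. Another 2 tables, of profiles over features, were not used. Reads of a repeated sequence can be placed at the wrong copy, and Chardonnay differs from the reference.

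Listing, length, class and position were taken from the tables with Python 3.11.15, pandas 2.3.3, numpy 2.4.6 and scipy 1.17.1. Differences were taken plain, weighted to the length classes of the CHH-only TEs, and against the nearest TE listed in all 3 contexts. The procedure was tested on simulated data. Named TEs were, per class, the 3 longest, the largest rise, fall and leaf level from 500 bp up, and the TE nearest the medians of each length class, of which a selection is given, together with the 2 largest falls at any length. The last were chosen after their values were seen. The members and the lists were chosen with earlier results of these data known. Alternatives were the median, other minimum lengths and differences, chromosomes 1 to 19 alone, and TEs without overlaps. Base composition, gene names and TE superfamilies were not analysed here.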

Additional observations from a re-analysis of the deposited data

Results flagged for a closer look

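The difference between CHH-only TEs and TEs listed in all 3 contexts had opposite signs in the 2 classes. At the same length classes the CHH change of CHH-only minus all-3-context TEs was 2.72 percentage points for genic and -1.87 points for intergenic TEs. The sign was the stated one on 17 of 19 chromosomes for genic and on 18 of 19 for intergenic TEs. The difference between the classes was not tested, because there was 1 library per tissue. The genic sign turned to -1.50 points against the nearest TE listed in all 3 contexts within 5 kb, while the intergenic sign stayed negative at -2.84 points. These neighbours were longer, with a genic median of 308 bp for CHH-only TEs and 856 bp for neighbours. Against the nearest such TE of the same length class within 20 kb, the mean difference was 1.05 points for genic and -1.07 points for intergenic TEs. The median differences in these pairs were 0.48 and -0.58 points. The pairs were split nearly evenly, with the greater change in the CHH-only TE in 52.002% of genic and 48.5% of intergenic pairs.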

How the results depend on the processing

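Over 22 results, 104 values were computed under other settings, of which 55 stayed close to the reported value, 47 moved and 2 reversed. Those that stayed close include the values of 1 setting that could change nothing. It left out TEs listed for CG or CHG in the other class, and no TE was listed in both classes. The 2 reversals were the genic difference in change against TEs listed in all 3 contexts, at -1.50 points with the nearest neighbour within 5 kb and -1.36 points within 20 kb, where it was 1.06 points in plain means and 2.72 points at the same length classes. The intergenic difference stayed negative, at -1.87 points at the same length classes, -2.17 and -0.812 points from 300 bp and 500 bp up, and -4.11 points without overlapping TEs. With alternatives chosen after seeing the data it was -2.33 points for medians at the same length classes and -1.07 points against a neighbour of the same length class. Medians gave 15.7% in EC, 0.67% in leaf and a change of 14.2 points for genic CHH-only TEs, and 0.98% in leaf for intergenic ones. The plain genic difference in change was 0.01 points in medians, against 1.06 points in means. This value was counted among those that stayed close, although the difference was nearly absent. From 300 bp up, intergenic CHH-only TEs had 34.0% in EC and a change of 31.5 points. From 500 bp up they had 36.0% in EC, 2.88% in leaf and a change of 33.1 points. Without overlaps they had 31.6% in EC and a change of 29.3 points.

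Shares moved with the minimum length and the minimum difference. From 500 bp up, 95.6% of genic and 98.7% of intergenic CHH-only TEs were higher in EC, 67.9% and 92.5% by at least 10 points, 0.0253% of intergenic ones were lower by 10 points, 19.1% and 14.7% were at 0 in leaf, and 2.62% and 0.733% at 0 in EC. With a minimum difference of 5 points, 73.5% and 92.7% rose and 0.282% and 0.203% fell. With 20 points, 38.5% and 70.9% rose and 0.0201% and 0.0181% fell. The number of CHH-only TEs was 9610 genic and 38273 intergenic from 100 bp up, 2455 and 11129 from 300 bp up, and 878 and 3956 from 500 bp up. Their share of TEs with a CHH value was then 25.2% and 30.1%, 11.2% and 15.01%, and 5.78% and 7.67%.

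No paired analysis was possible because each tissue had 1 library, and leaving out a replicate was not run for the same reason. The coverage minimum was not varied, since the tables give no coverage.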

Other observations

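TEs with a CHH value and 1 other context are described here beside the CHH-only TEs. Among genic TEs of at least 200 bp, CHH-only TEs had 20.6% in EC and a change of 18.6 points, those listed for CHH and CG had 23.7% and 21.7 points, and those listed for CHH and CHG had 13.5% and 11.97 points. Among intergenic TEs the EC levels were 32.5% for CHH-only TEs, 35.4% with CG and 32.7% with CHG, and the changes were 30.2, 32.9 and 29.8 points. Without regard to length, genic CHH-only TEs thus lay between the 2 groups in EC level, whereas intergenic ones were close to those with CHG. Neither held in each length class. Intergenic CHH-only TEs and those with CHG had 31.1% and 33.5% at 200 to under 300 bp, and 36.4% and 32.9% at 500 to under 1000 bp. At 2000 bp or more, 29 genic CHH-only TEs had 26.1%, below the 38.2% of 12 with CG and the 29.8% of 21 with CHG.

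CHH-only listing was more frequent still among TEs under 200 bp, at 52.5% of 14950 genic and 57.5% of 43431 intergenic TEs with a CHH value. Genic CHH-only TEs of this length averaged 14.5% in EC and 1.36% in leaf, below the 20.6% and 1.94% of the longer ones. Intergenic CHH-only TEs under 200 bp averaged 32.9% in EC and 2.66% in leaf, within 1 point of the longer ones.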
